A study of Homo sapiens with 4 samples.

Results

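The Krüppel-like factor (KLF) genes KLF2, KLF3, KLF4, KLF5, KLF6, KLF7, KLF9, KLF10, KLF11 and KLF13 were followed through 4 RNA-sequencing libraries of HCT116, a human colorectal carcinoma cell line. They were listed by name, without a threshold on their values but with earlier results of these data known. They are 10 of the 58735 genes in the files. Shares of these genes, and of the lists further below, beside those of all genes are therefore descriptions. The study asked about the kinesin KIF26B by transfecting these cells with small interfering RNA (siRNA). 2 libraries carry the label control siRNA and 2 the label KIF26B siRNA, all taken 48 h after transfection. No other treatment separates the groups in the labels. All 4 libraries are of the same line, and the labels do not say whether replicates 1 and 2 were separate cultures, so the p-values below measure only the spread between these libraries. The paper names a pair of independent siRNAs against KIF26B for other experiments. The headers of the files mark the KIF26B siRNA libraries K_KD1_2 (replicate 1) and K_KD2 (replicate 2), and whether these marks stand for different siRNAs or for repeats of 1 siRNA is not given in the sources used here.

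KLFs are transcription factors with zinc fingers at the C-terminus that bind GC-rich and CACCC sequences, as the related SP proteins do. They fall into groups by what their other end recruits: KLF2, KLF4, KLF5, KLF6 and KLF7 act mostly as activators, KLF3 recruits the CTBP co-repressors, and KLF9, KLF10, KLF11 and KLF13 recruit SIN3A. In the intestinal epithelium KLF4 marks differentiating cells that have left the cell cycle, and KLF5 the dividing cells of the crypt.

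Promoters of KLF2, KLF4 and KLF11 are shown because these genes differed at least 2-fold between the libraries labelled KIF26B siRNA, and because GC boxes are themselves sites to which KLF and SP proteins bind. Each sequence is the RefSeq window of 300 bases, from 250 before to 50 after the start, in build GRCh38.p14. The GC box GGGCGG and its reverse complement CCGCCC stand in capitals, and overlapping matches were each counted.
KLF2 promoter, chr19:16324576-16324875, plus strand: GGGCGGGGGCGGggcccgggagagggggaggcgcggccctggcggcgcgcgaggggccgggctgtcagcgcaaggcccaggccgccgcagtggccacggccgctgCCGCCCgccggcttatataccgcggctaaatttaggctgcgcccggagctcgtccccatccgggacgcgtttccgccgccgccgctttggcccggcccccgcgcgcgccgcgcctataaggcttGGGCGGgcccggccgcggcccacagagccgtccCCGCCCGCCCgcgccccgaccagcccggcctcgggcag
KLF4 promoter, chr9:107489720-107490019, minus strand: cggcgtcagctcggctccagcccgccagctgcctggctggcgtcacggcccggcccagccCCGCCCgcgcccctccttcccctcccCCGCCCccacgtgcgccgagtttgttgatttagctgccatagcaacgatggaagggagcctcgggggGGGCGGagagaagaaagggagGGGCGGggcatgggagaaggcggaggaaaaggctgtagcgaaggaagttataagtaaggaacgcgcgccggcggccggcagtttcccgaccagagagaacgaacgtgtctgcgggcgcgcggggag
KLF11 promoter, chr2:10043971-10044270, plus strand: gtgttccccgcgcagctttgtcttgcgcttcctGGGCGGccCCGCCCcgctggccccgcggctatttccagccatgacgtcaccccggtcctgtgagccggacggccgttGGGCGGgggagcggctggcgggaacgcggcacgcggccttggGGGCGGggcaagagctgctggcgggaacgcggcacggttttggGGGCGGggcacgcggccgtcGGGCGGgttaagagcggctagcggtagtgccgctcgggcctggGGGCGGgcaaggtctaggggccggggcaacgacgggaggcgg

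The KLF2 window held 6 GC boxes, the KLF4 window 4 and this KLF11 window 7. Of 35116 promoter windows of the same length, 45.0% held at least 1 GC box and 5.14% at least 5. G and C made up 80.7% of the KLF2 window, 69.0% of the KLF4 window and 75.3% of this KLF11 window. The median over all windows was 58.7%, and the counts were not set against windows of like composition. The second KLF11 window held 2. KLF7, the fourth gene with a difference of that size, has 4 windows, and 1 of them held 4 GC boxes and the others 0. Elsewhere the KLF13 window held 3, the KLF6 window 2, the KLF5 windows 2 and 0, and the KLF9 window 0. RefSeq windows were matched for 8 of the 10 genes, not for KLF3 and KLF10. Of their 13 windows, 8 held the GC box, 7 the CACCC box (CACCC, in 59.9% of all windows), 6 the CCAAT box (CCAAT, 34.6%), 1 the TATA box (TATAAA, 11.5%) and 1 the cAMP response element (TGACGTCA, 1.85%), which is in the KLF11 window printed above. Both strands were searched. The matches describe letters in these windows and not sites in use.

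All 10 genes were expressed. Levels were given as FPKM, fragment counts scaled to exon length and to the size of the library, which allows genes to be set against each other per length. In the control libraries the order ran from KLF10 at 35.3 ± 0.167 FPKM (mean ± SD, n = 2) through KLF6 at 33.4 ± 1.59, KLF5 at 24.7 ± 0.239, KLF4 at 18.5 ± 0.411 and KLF2 at 16.7 ± 0.785 to KLF13 at 11.1 ± 0.523. Below these were KLF9 at 7.27 ± 0.353 FPKM, KLF3 at 6.81 ± 0.288, KLF11 at 2.86 ± 0.370 and KLF7 at 2.60 ± 0.0674. Only the neighbours KLF11 and KLF7 overlapped between the control libraries. KLF9 and KLF3 were separated by 7.02 against 7.01 FPKM, so their order is not firm. KLF10, KLF6 and KLF5 together made up 58.7% and 58.5% of the summed level of the 10 genes in control replicates 1 and 2.

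The controls were close to each other. Control replicate 2 over replicate 1 ranged from 0.832 for KLF11 (95% exact interval for counting error, 0.704 to 0.984) to 1.07 for KLF9 (0.971 to 1.18). The interval left out 1 for KLF6, KLF11 and KLF13, so that the controls of these genes differed beyond counting error. The reads behind these values ranged from 188 for KLF11 in KIF26B siRNA replicate 1 to 5748 for KLF6 in replicate 2. Intervals of this kind cover counting error and not the spread between cultures.

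The targeted gene was measured first, as a check on the labels. KIF26B was at 0.110 and 0.205 FPKM in control replicates 1 and 2, at 0.140 in the library labelled KIF26B siRNA replicate 1 and at 0.0307 in the library labelled KIF26B siRNA replicate 2, from 31, 73, 43 and 8 reads. Replicate 1 lay between the controls, at 0.857 of their rate (0.586 to 1.23). Replicate 2 was at 0.189 (0.0793 to 0.386). The controls themselves differed beyond counting error, with control replicate 2 over replicate 1 at 1.87 (1.22 to 2.95). The intervals against the pooled controls do not cover that difference. The label KIF26B siRNA therefore had a lower KIF26B level beside it in replicate 2 and not in replicate 1, and every direction below rests on the labels. KIF26B was under the filter on low values. In the fit without that filter its log2 difference was -0.09 (limma, adjusted p = 0.775). That fit adds 1 to each FPKM before the log, which leaves little room for a difference at levels this low. The value therefore cannot decide whether KIF26B fell.

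No difference between the labelled groups passed the test for any of the 10 genes. The test was limma on log2(FPKM + 1) over the 14523 genes whose mean reached 1 FPKM, with the study's thresholds of P under 0.05 and a log2 difference beyond 1. Of the 10 genes, 0 were called higher, where 0.813% of all genes were, and 0 lower, where 0.606% were. At P under 0.05 alone 0 were higher (7.74% of all genes) and 0 lower (8.68%). After adjustment 0 of 14523 genes had a p under 0.05, and the smallest was 0.242. An exact permutation test on 2 against 2 libraries cannot go below p = 0.333. The median log2 difference, KIF26B siRNA minus control, was 0.13 over the 10 genes and -0.01 over all genes tested. In bulk RNA, fewer cells of a kind and less RNA per cell cannot be told apart.

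The libraries labelled KIF26B siRNA did not resemble each other in most of these genes. KLF2, KLF4, KLF7, KLF9 and KLF11 were below both controls in replicate 1 and above both in replicate 2. That is 5 of the 10 genes, and 14.0% of all genes tested had this pattern. KLF10 had the opposite pattern, as did 12.3% of all genes. KLF3, KLF5, KLF6 and KLF13 were above both controls in both libraries, 4 of the 10 genes against 24.9% of all genes. Of the 10, 0 were below both controls in both libraries, where 27.8% of all genes were. Replicate 2 was at least 2-fold above replicate 1 in KLF2, KLF4, KLF7 and KLF11, 4 of 10 against 6.84% of all genes, and 0 were as far the other way (5.05%). For KLF7 and KLF9 the split rests in replicate 1 on distances from the pooled controls that were within counting error. These counts and shares are descriptions of 2 libraries, which have no replicate of their own.

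**Figure D1:**
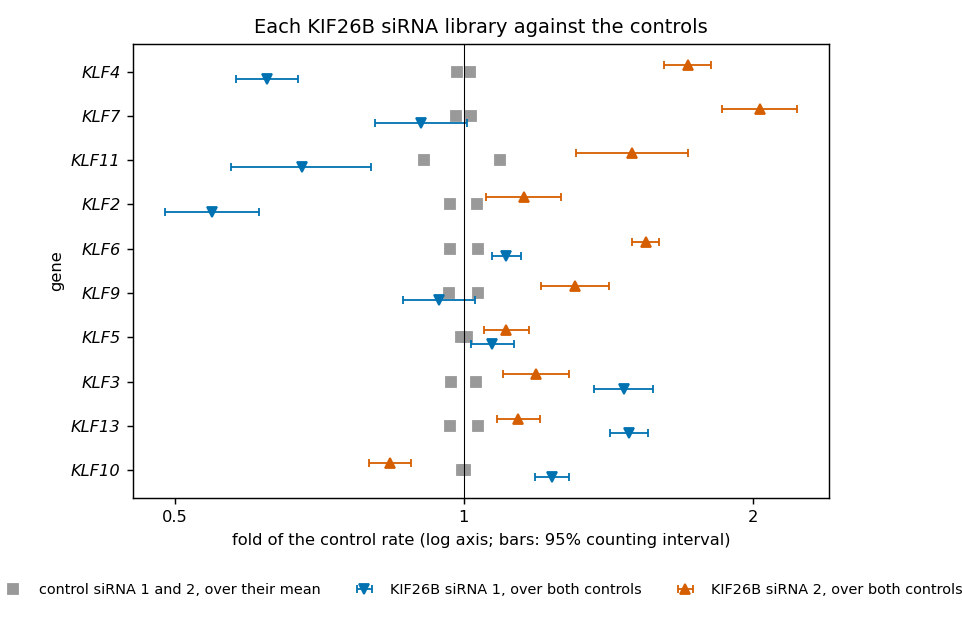
Rate of each KIF26B siRNA library over the pooled control rate (log axis) for the 10 genes, with 95% counting intervals, and each control over the mean of both as grey squares. Genes are ordered by replicate 2 over replicate 1, from 0.679 for KLF10 at the bottom to 2.74 for KLF4 at the top.

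Among the activators, KLF4 (ENSG00000136826, chromosome 9) spread most. It was at 18.8 and 18.2 FPKM in control replicates 1 and 2, at 11.5 in KIF26B siRNA replicate 1 and at 31.6 in replicate 2. Against the pooled controls it was 0.624-fold (0.578 to 0.672) in replicate 1 and 1.71-fold (1.62 to 1.81) in replicate 2, so the 2 libraries moved away from the controls in opposite directions beyond counting error. Replicate 2 was 2.74-fold above replicate 1 (2.54 to 2.97), a ratio exceeded by 432 of the 14523 genes. The mean of the labelled group, 21.6 ± 14.2 FPKM (SD, n = 2), was near the control mean, and the log2 difference was 0.05 ± 0.50 (SE; limma, adjusted p = 0.966).

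KLF2 (ENSG00000127528, chromosome 19), known for holding endothelial and T cells in quiescence, was at 16.2 and 17.3 FPKM in the controls, 9.19 in replicate 1 and 19.4 in replicate 2. Here the distance lay mainly in replicate 1, at 0.547-fold of the controls (0.488 to 0.611), while replicate 2 was at 1.15-fold (1.05 to 1.26). The log2 difference between groups was -0.30 ± 0.37 (SE; limma, adjusted p = 0.714). KLF2 was the one gene of the 10 with a difference under 0, and of all 14523 genes tested 7033 were above 0. KLF4, KLF10 and KLF11 were at 0.05, 0.02 and 0.02, each within its SE of 0, so their sign carries little. The pseudogene KLF2P1, a near copy of KLF2, had 61 and 94 reads in the controls and 84 and 88 in the KIF26B siRNA libraries, against 396 to 861 for KLF2. Reads shared by both copies could have been assigned to either, so KLF2 is uncertain to that extent.

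KLF7 (ENSG00000118263, chromosome 2), best known from neurons, was the reverse of KLF2. It was at 2.55 and 2.65 FPKM in the controls, 2.35 in replicate 1 and 5.29 in replicate 2. Replicate 1 was within counting error of the controls (0.902-fold, 0.807 to 1.01), and replicate 2 was 2.03-fold above them (1.86 to 2.22), the furthest any of the 10 genes stood from the controls on the high side. The group difference was 0.35 ± 0.34 on the log2 scale (SE; limma, adjusted p = 0.638).

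KLF6 (ENSG00000067082, chromosome 10), a broadly expressed factor described as a tumour suppressor, was at 32.3 and 34.5 FPKM in the controls, 37.1 in replicate 1 and 51.8 in replicate 2, with no overlap between the groups. Replicate 1 was 1.11-fold (1.07 to 1.15) and replicate 2 was 1.55-fold (1.495 to 1.60) above the controls. The log2 difference was 0.38 ± 0.20 (SE; limma, adjusted p = 0.412), so the separation did not pass the test. This was the largest of the 10 on log2(FPKM + 1), but with a pseudocount of 0.1 KLF7 (0.43) and KLF3 (0.40) were above KLF6 (0.39). In replicate 2 KLF6 took the first rank from KLF10, and KLF4, at rank 4 in the controls, stood at rank 2.

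KLF5 (ENSG00000102554, chromosome 13) was the steadiest. It was at 24.8 and 24.5 FPKM in the controls and at 26.4 and 27.3 in replicates 1 and 2, and the latter were within counting error of each other (1.03-fold, 0.972 to 1.10). Both were above the controls, by 1.07-fold (1.02 to 1.13) and 1.11-fold (1.05 to 1.17). The log2 difference was 0.12 ± 0.11 (SE; limma, adjusted p = 0.624). KLF4 and KLF5, the factors that mark opposite states of the gut epithelium, thus stood in different proportion: in replicate 1 KLF4 was below KLF5 (11.5 and 26.4 FPKM) and in replicate 2 above it (31.6 and 27.3).

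Of the genes that recruit SIN3A, KLF10 and KLF11 are early responders to TGF-β. KLF10 (ENSG00000155090, chromosome 8) was at 35.4 and 35.1 FPKM in the controls, 43.5 in replicate 1 and 29.5 in replicate 2. It was 1.23-fold (1.19 to 1.29) above the controls in replicate 1 and 0.838-fold (0.797 to 0.880) in replicate 2. KLF11 (ENSG00000172059, chromosome 2) ran the other way, at 3.12 and 2.60 FPKM in the controls, 1.92 in replicate 1 and 4.23 in replicate 2. It was at 0.678-fold (0.572 to 0.801) and 1.497-fold (1.31 to 1.71), and replicate 2 was 2.21-fold above replicate 1 (1.84 to 2.65). The group differences were 0.02 ± 0.22 for KLF10 and 0.02 ± 0.32 for KLF11 on the log2 scale (SE; limma, adjusted p = 0.964 and 0.978). Near-equal group means thus covered libraries that differed in opposite directions.

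KLF9 (ENSG00000119138, chromosome 9), a gene induced by glucocorticoids and thyroid hormone, was at 7.02 and 7.52 FPKM in the controls, 6.87 in replicate 1 and 9.53 in replicate 2. Replicate 1 was within counting error of the controls (0.942-fold, 0.864 to 1.03) and replicate 2 was above them (1.31-fold, 1.20 to 1.42). The log2 difference was 0.14 ± 0.19 (SE; limma, adjusted p = 0.732). KLF13 (ENSG00000169926, chromosome 15), its close relative, was at 10.7 and 11.5 FPKM in the controls, 16.6 in replicate 1 and 12.7 in replicate 2. It was higher in both libraries, and more so in replicate 1 (1.49-fold, 1.42 to 1.55) than in replicate 2 (1.14-fold, 1.08 to 1.20). The log2 difference was 0.36 ± 0.17 (SE; limma, adjusted p = 0.381).

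KLF3 (ENSG00000109787, chromosome 4), the gene of the list that recruits CTBP, resembled KLF13. It was at 6.60 and 7.01 FPKM in the controls, 10.0 in replicate 1 and 8.12 in replicate 2, again without overlap. Replicate 1 was 1.47-fold (1.37 to 1.57) and replicate 2 was 1.19-fold (1.10 to 1.29) above the controls. The log2 difference was 0.36 ± 0.15 (SE; limma, adjusted p = 0.332), the lowest adjusted p of the 10 genes. KLF3-AS1, which overlaps KLF3 on the opposite strand, had 26 and 35 reads in the controls, 17 in replicate 1 and 90 in replicate 2, against 816 to 1348 for KLF3. Whether strand was used in counting is not given, so reads from any stretch that both genes share cannot be told apart. The extent of that stretch was not measured.

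Summed over the 10 genes, the level was 157.5 and 160.9 FPKM in the controls, 165.4 in replicate 1 and 199.5 in replicate 2. The sum of KLF2, KLF4, KLF7, KLF9 and KLF11 was 47.7 and 48.3 FPKM in the controls, 31.9 in replicate 1 and 70.1 in replicate 2. That of KLF3, KLF5, KLF6 and KLF13 was 74.4 and 77.5 in the controls, then 90.1 and 99.9. The genes were put into these sums by their own pattern, so the sums are a description of its size.

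**Figure D2:**
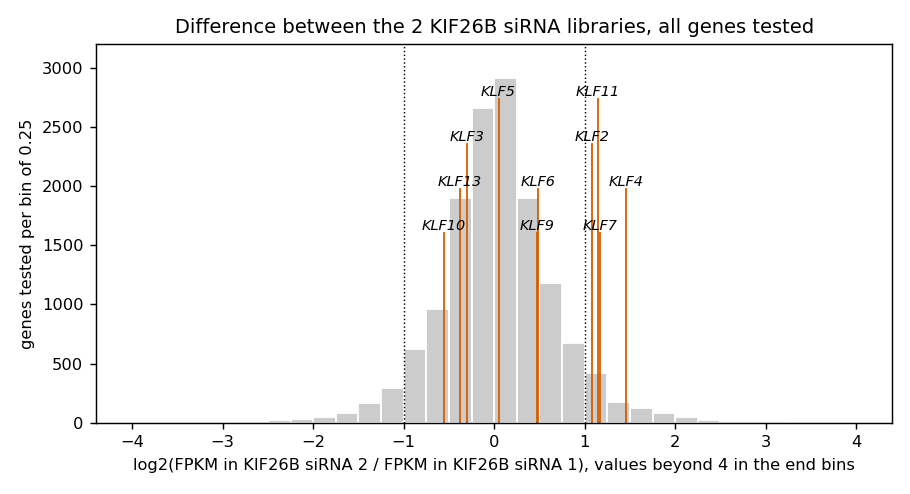
Number of genes tested per bin of log2(KIF26B siRNA replicate 2 / replicate 1), with the 10 KLF genes marked and dotted lines at 2-fold in each direction. KLF2, KLF11, KLF7 and KLF4 lie beyond the right line, and 0 lie beyond the left one. The median ratio was 1.39 for the 10 genes and 1.02 for all genes.

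Leaving out 1 library showed how far each group mean rested on it. The lone library left in a group was then assumed to vary as the other group did. Without KIF26B siRNA replicate 1, 6 of the 10 genes had P under 0.05, where 46.6% of all genes did. KLF4 was then higher by 0.74 on the log2 scale, KLF7 by 0.81 and KLF6 by 0.62. Without replicate 2, 5 of 10 had P under 0.05, where 39.9% of all genes did. KLF4 was then at -0.64 and KLF2 at -0.80. The direction of KLF4 was thus decided by which library was left in. With a control left out, KLF4 was at 0.07 (without control replicate 1) and 0.03 (without control replicate 2), and KLF11 at 0.12 and -0.08. KLF3, KLF5, KLF6 and KLF13, which lay above both controls in both libraries and so could not change sign, ranged from 0.09 for KLF5 to 0.62 for KLF6.

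Of the 17 other KLF and SP genes, 9 reached a mean of 1 FPKM. KLF16, a repressor that also binds SIN3A, was at 15.2 and 15.1 FPKM in the controls and at 19.7 and 25.8 in replicates 1 and 2, a log2 difference of 0.54 ± 0.17 (SE; limma, adjusted p = 0.280). SP5, a target of Wnt signalling, was at 1.66 and 1.69 FPKM in the controls and at 1.11 and 0.672, a difference of -0.51 ± 0.16 (adjusted p = 0.281). These were the 2 of 9 with an unadjusted P under 0.05, 1 in each direction, beside 7.74% of all genes higher and 8.68% lower, so the count was near the background. KLF15, a gene of glucose and lipid metabolism, was at 0.984 and 1.07 FPKM, then 1.12 and 1.81. The values of KLF12, another CTBP-binding repressor, were 2.48 and 2.37, then 1.997 and 2.39.

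SP1, the general activator at GC boxes, was at 18.5 and 17.5 FPKM in the controls, 18.3 in replicate 1 and 21.7 in replicate 2. SP3, its close relative, was at 12.5 and 12.3, then 11.8 and 11.2. SP2 was at 6.57 and 6.18, then 6.01 and 4.59. SP2, SP3, SP4 and SP5 were below both controls in both libraries, 4 of 9 beside 27.8% of all genes. SP4 was at 3.19 and 2.86 FPKM, then 1.72 and 2.83, so that it counts there by a narrow margin in replicate 2, and SP6, a gene of skin and tooth epithelium, at 7.84 and 7.27, then 8.65 and 6.99. The pattern of KLF2, KLF4, KLF7, KLF9 and KLF11, low in replicate 1 and high in replicate 2, was held by 0 of the 9 relatives, beside 14.0% of all genes, which is too few genes to set them apart. Their median log2 difference was -0.10.

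Of 25 regulators and cofactors of KLF proteins, all of them tested, 0 were higher and 3 lower at P under 0.05, beside 7.74% and 8.68% of all genes, so the 3 were near the background. KAT2B, an acetyltransferase that acts as a co-activator, was at 2.17 and 2.15 FPKM in the controls and at 0.656 and 1.08 in replicates 1 and 2 (log2 difference -0.77 ± 0.16, SE; limma, adjusted p = 0.242). MEF2A, of a family that drives KLF2 and KLF4 in endothelium, was at 9.82 and 10.4 FPKM, then 6.98 and 6.73 (log2 difference -0.50; limma, adjusted p = 0.245). SMURF2, a ubiquitin ligase of the TGF-β pathway, was at 48.5 and 49.99, then 36.1 and 39.1 (log2 difference -0.38; limma, adjusted p = 0.274). Both KIF26B siRNA libraries lay below both controls for these genes. They were named because they had P under 0.05, a choice that favours libraries on the same side. The median of the list was -0.08 on the log2 scale, against -0.01 for all genes.

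Of 35 genes known as KLF targets, 25 were tested, and 3 were higher and 6 lower at P under 0.05, beside 7.74% and 8.68% of all genes. SMAD7, the inhibitor of TGF-β receptors, and CCND1, cyclin D1, were past both thresholds (0.606% of all genes), with log2 differences of -1.54 and -1.34 (limma, adjusted p = 0.242 and 0.247). LAMA3, a laminin chain of the epithelial basement membrane, was at 2.92 and 2.53 FPKM in the controls and at 0.823 and 1.26 in replicates 1 and 2. CCNB1, the mitotic cyclin B1, was at 74.2 and 75.2, then 45.2 and 50.7. LGALS3, galectin 3, was at 23.0 and 23.8, then 39.5 and 35.5. The median of the list was 0.02.

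The split pattern was also present in other genes of these lists, named here after their values were seen. PER1, a clock gene induced by glucocorticoids, was at 16.6 and 16.3 FPKM in the controls, 8.72 in replicate 1 and 46.7 in replicate 2. CDKN1C, an inhibitor of the cell cycle, was at 19.6 and 21.1, then 9.75 and 51.0. PDGFA, a growth factor, was at 13.2 and 13.3, then 6.71 and 19.3. ENG, endoglin, was instead higher in both, at 0.725 and 0.515, then 1.15 and 2.90. In all, 7 of the 25 target genes and 2 of the 25 regulators were below both controls in replicate 1 and above both in replicate 2, beside 14.0% of all genes. The opposite split was held by 3 of the targets and 4 of the regulators, beside 12.3% of all genes.

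**Figure D3:**
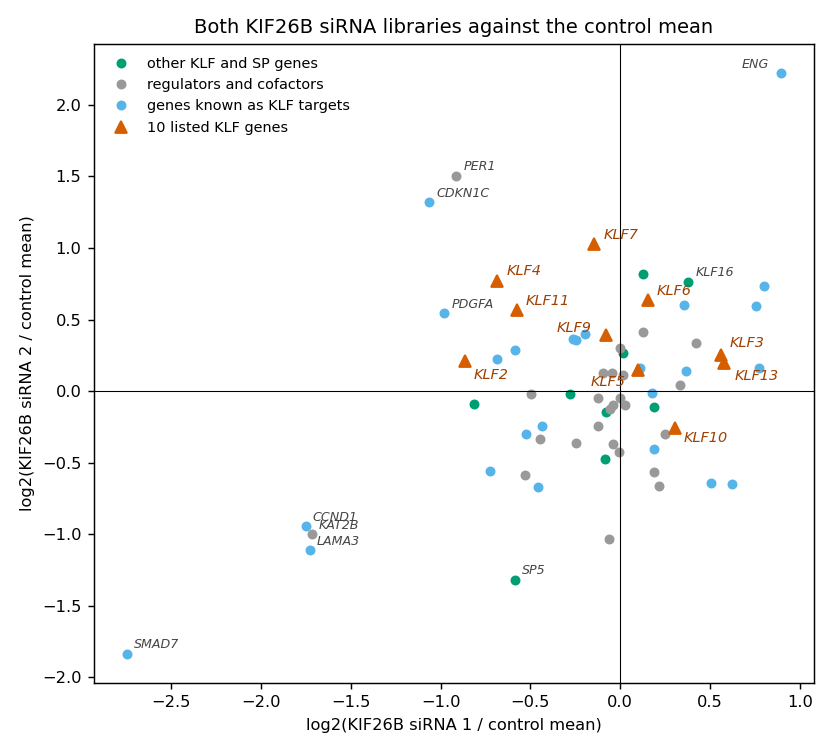
Log2 ratio to the control mean in KIF26B siRNA replicate 1 (horizontal) and replicate 2 (vertical), 1 point per gene, for the 10 KLF genes (triangles) and for the tested genes of the 3 related lists (circles). KLF2, KLF4, KLF7, KLF9 and KLF11 sit at the upper left with PER1, CDKN1C and PDGFA, while SMAD7, CCND1, KAT2B, LAMA3 and SP5 sit at the lower left.

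For KLF6, KLF3 and KLF13, which had the largest group differences on log2(FPKM + 1) but not with a pseudocount of 0.1 or with limma-voom, where KLF7 was among the first 3, the genes nearest in pattern were taken by Euclidean distance over the 4 libraries, on the same scale minus the control mean. Nearest to KLF6 were DMKN (distance 0.015), DHRS1 (0.038) and TRAPPC2B (0.0383). Nearest to KLF3 were APEX1 (0.0244), REEP5 (0.0333) and SLC39A11 (0.0336), and to KLF13 MT-ND5 (0.0156), FANCF (0.0171) and ENSG00000234147 (0.0257). DMKN was at 15.1 and 16.4 FPKM in the controls, 17.6 in replicate 1 and 24.6 in replicate 2, a course like that of KLF6. MT-ND5, a mitochondrial gene, was at 2256 and 2387, then 3355 and 2603.

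Other measures moved with the libraries too. Fragments on mitochondrial genes, as a percent of the library's scaling number (the fragments taken as its size), came to 6.83 and 6.89 in the controls, 9.68 in replicate 1 and 8.18 in replicate 2, and their part in the KLF values was not tested. The scaling numbers, which stand for depth, lay between 18068934 and 24673739 fragments. The 7 markers of colon epithelium summed to 839 and 834 FPKM in the controls and to 642 and 639 in the KIF26B siRNA libraries, and 5 of them were above 1 FPKM. Most of that sum and of its difference lay in 2 keratins, KRT8 (485 and 482 FPKM in the controls, then 369 and 350) and KRT18 (245 and 243, then 175 and 168). KRT19, an epithelial keratin on the list of targets, was at 842 and 862, then 921 and 951. CDX2, the intestinal homeobox factor, was at 2.89 and 3.34, then 3.44 and 2.32. EPCAM was at 82.3 in both controls, 77.0 in replicate 1 and 98.6 in replicate 2. CDH1 was lower in both libraries, at 24.1 and 23.9 in the controls, then 17.7 and 20.2. KRT20 and VIL1, of differentiated colon cells, were near 0. Markers of other cell types were low: the 4 of leukocytes summed to at most 0.480 FPKM with CD3E at 0, the endothelial ones, of which PECAM1 was not matched, to at most 0.201, and the 5 of fibroblasts to 4.87 to 8.76, nearly all from COL1A1.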

How the data were processed

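Poly(A) mRNA of 4 HCT116 libraries was sequenced by the authors as paired reads. Per the methods and the submitters' processing notes, reads were aligned with HISAT2 2.0.5 and counted with featureCounts 1.5.0-p3. The methods name hg19 and the notes hg38, and the files hold no coordinates. The authors deposited FPKM values, a unit read from the values, and their DESeq2 results were not used here. Symbols came from GENCODE for 56513 of 58735 identifiers.

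Groups and replicate numbers came from the labels. log2(FPKM + 1) was compared with limma 3.58.1 (R 4.3.3) with no covariate, on genes whose mean FPKM reached 1, with Benjamini-Hochberg adjustment over all 14523 genes. The design had allowed for counts, and limma was used because the files hold FPKM. Whole reads were recovered for 34637 of 34638 genes above 0, as the gene length that gave whole numbers in every library within a tolerance of 0.004, and counting intervals are exact at 95%. A multiple of that length also gives whole reads, so library totals of recovered reads are approximate. The fit was tested on simulated data.

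Members and lists were chosen with earlier results of these data known. Named were the 10 genes, KIF26B, every tested KLF or SP relative, up to 5 genes of each other list with P under 0.05 and the largest log2 difference, and the 3 nearest genes of 3 members. PER1, CDKN1C, PDGFA, ENG, KRT19 and the marker genes were named outside this rule, after their values were seen. Promoter windows are from RefSeq. Alternatives were a replicate block, a pseudocount of 0.1, other filters, median-of-ratios scaling, a variance trend, limma-voom on recovered reads, adjusted thresholds and leaving out each library. Python 3.11.15, pandas 2.3.3 and scipy 1.17.1 were used.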

Additional observations from a re-analysis of the deposited data

How the results depend on the processing

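With all 4 libraries, 1 of 70 values of the 10 KLF genes under the alternatives had an unadjusted P under 0.05, that of KLF3 with limma-voom (log2 difference 0.41). The 70 values are refits of the same 10 genes and not separate results. At that P, 1463 of 14523 genes were lower and 1135 higher with limma-voom, and 861 and 864 with the replicate block. With 1 library left out, the log2 difference ranged from -0.80 to 0.20 for KLF2, -0.64 to 0.74 for KLF4, -0.10 to 0.81 for KLF7, -0.07 to 0.35 for KLF9, -0.25 to 0.30 for KLF10 and -0.40 to 0.44 for KLF11. In these genes the KIF26B siRNA libraries lay on opposite sides of both controls, so a change of sign was bound to follow. KLF11 was also at -0.02 with limma-voom. Over all genes, 88 were lower and 118 higher past both thresholds. These counts became 203 and 217 with a pseudocount of 0.1, 52 and 69 with at least 1 FPKM in every library, 204 and 197 with limma-voom, and 0 and 0 with an adjusted p. With 1 library left out they ranged from 123 to 223 and from 156 to 334. Without KIF26B siRNA replicate 1, 2507 genes had an adjusted p under 0.05, and without any other single library 0 did.

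Regulators and cofactors called lower went from 0 to 1 with a pseudocount of 0.1 and to 1 with limma-voom, and those called higher ranged from 0 to 1 with 1 library left out. Targets called lower went from 2 to 1 with at least 1 FPKM in every library, a filter that SMAD7 did not meet (0.725 FPKM in KIF26B siRNA replicate 1). They came to 3 with a pseudocount of 0.1 and to 3 with limma-voom, and also changed when either KIF26B siRNA library was left out. Targets called higher went from 0 to 1 with limma-voom and ranged from 0 to 2 with 1 library left out. What caused the other changes was not tested.

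No pairing by replicate number was seen (correlation across genes of the replicate differences in the groups, -0.003). With 2 libraries per group this value cannot decide whether the replicates were paired. With the replicate block 98 genes were lower and 135 higher, the smallest adjusted p was 0.391, and 0 of the 10 genes were called, as without it. Scaling by recovered reads, chosen after seeing the data, moved the ratio of KIF26B siRNA replicate 2 to replicate 1 from 1.40 to 1.33 for KLF6 and from 2.74 to 2.61 for KLF4. The counting interval of that ratio left out 1 for each of the 10 genes except KLF5. How many of all genes did so was not counted, so this does not set the KLF genes apart.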
